A study of Homo sapiens with 12 samples.

Results

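The MYC, MAX and MXD network is a small group of basic helix-loop-helix leucine zipper transcription factors. The members described here were the 10 rows of the deposited gene table whose symbol was MYCN, MYC, MYCL, MAX, MXD1, MXD3, MXD4, MXI1, MNT or MLX, of 27514 genes listed. All 10 were found, and 9 of them had a mean of at least 1 CPM (counts per M reads of the library) over the 12 samples. MYC was the exception. The cells were IMR32, an established human neuroblastoma line with amplified MYCN, and RNA was sequenced 72 h after siRNAs were delivered by Nucleofector electroporation. There were 4 groups of 3 samples. The siCtrl cells had a control siRNA, the siMYCN and siHAND2 cells had an siRNA to MYCN or to HAND2 alone, and the combined knockdown had both of these siRNAs at once. HAND2 encodes another basic helix-loop-helix transcription factor of noradrenergic neuroblastoma. The labels name 1 siRNA per target and do not say that the 3 samples of a group came from separate cultures, so p-values measure the spread between these samples, which may be technical.

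MYC, MYCN and MYCL bind DNA only as dimers with MAX, most strongly at the E-box CACGTG, and activate transcription from there. The MXD proteins (MXD1, MXD3, MXD4 and MXI1, also called MXD2) and MNT also dimerise with MAX, bind the same sites and recruit SIN3 and histone deacetylases, so they oppose MYC. MLX is a MAX-like partner that dimerises with MNT, with some of the MXD proteins and with the glucose-sensing factor MLXIP. In neuroblastoma MYCN amplification marks aggressive disease, tumours with high MYCN generally have low MYC, and several MXD genes are known to be induced when cells differentiate.

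Promoters of MXD1, MXD3 and MXD4, the antagonists called in the combined knockdown, are shown because the network acts through E-boxes. The RefSeq promoter table (GRCh38.p14, 250 bases before to 50 bases after each start) held 12 promoters for 9 of the 10 members, with none for MYC. Each of the 12 matched the GRCh37 (hg19) sequence in and around its gene exactly once, on the strand of its gene, and the hg19 positions are given. The rest of the genome was not searched. The hexamers searched on both strands are in capitals: the canonical E-box CACGTG, then CATCTG, a form known for HAND2 dimers, and then the form CAGCTG. They do not overlap here. MXD1 lies on the plus strand at chr2:70141991-70142290, MXD3 on the minus strand at chr5:176739704-176740003 and MXD4 on the minus strand at chr4:2263787-2264086.

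MXD1: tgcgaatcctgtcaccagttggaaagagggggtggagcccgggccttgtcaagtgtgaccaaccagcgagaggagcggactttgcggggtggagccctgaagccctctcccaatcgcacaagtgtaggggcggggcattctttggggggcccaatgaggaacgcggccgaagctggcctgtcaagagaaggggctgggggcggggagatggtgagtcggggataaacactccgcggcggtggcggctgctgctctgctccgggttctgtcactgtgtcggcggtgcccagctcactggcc

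MXD3: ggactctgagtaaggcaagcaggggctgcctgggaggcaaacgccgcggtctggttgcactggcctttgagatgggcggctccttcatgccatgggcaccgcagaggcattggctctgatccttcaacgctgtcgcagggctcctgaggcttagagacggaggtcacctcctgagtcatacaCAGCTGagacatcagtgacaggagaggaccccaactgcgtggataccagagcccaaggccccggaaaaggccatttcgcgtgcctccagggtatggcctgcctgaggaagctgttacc

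MXD4: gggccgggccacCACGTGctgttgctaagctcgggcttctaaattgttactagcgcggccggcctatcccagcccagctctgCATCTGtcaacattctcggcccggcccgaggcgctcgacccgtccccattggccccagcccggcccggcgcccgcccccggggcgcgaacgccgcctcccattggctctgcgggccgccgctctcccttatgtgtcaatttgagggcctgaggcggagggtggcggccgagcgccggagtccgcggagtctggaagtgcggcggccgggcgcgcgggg

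The MXD1 promoter held none of the 3 hexamers. MXD4 held CACGTG starting at position -238 and CATCTG at -168 (the base before the start is -1). MXD3 held CAGCTG at -68. CACGTG was also present once in the promoters of MNT (chr17:2304305-2304604, minus strand) at -193 and of MLX (chr17:40718868-40719167, plus strand) at -50, and the 30 bases around these sites are given with the hexamer in capitals.

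MNT: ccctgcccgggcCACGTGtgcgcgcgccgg

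MLX: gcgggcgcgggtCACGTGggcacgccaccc

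The MYCN promoter (chr2:16080422-16080721, plus strand) held CATCTG 14 bases after the start. No promoter of MYCL, MAX or MXI1 held any of the 3 hexamers. CACGTG was thus in 3 of the 12 member promoters and in 7.26% of all 35116 promoters of the table. The shares over all promoters were 14.7% for CATCTG (2 of the 12) and 17.9% for CAGCTG (1 of the 12). Positions count from the starts in the promoter table, which can differ from those of the gene table. On the minus strand, the gene-table rows of MXD3, MXD4 and MNT begin at 176739293, 2263740 and 2304259. The promoter windows of these genes lie wholly upstream of those rows. These matches describe the letters only.

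Depth was estimated from the step between low CPM values and ranged from 31.6 to 64.1 M reads per sample, so that 3 reads were worth 0.0468 to 0.0950 CPM. The share of reads that fell in listed genes was highest in the siCtrl samples at 65.1% ± 0.736 (SD, n = 3). It averaged 62.4% ± 0.979 with siMYCN, 59.4% ± 2.39 with siHAND2 and 51.4% ± 7.04 with both, where replicate 3 was lowest at 44.3%. Each knockdown gave an exact permutation p of 0.1 against siCtrl, the smallest that 3 against 3 samples allow. CPM of any listed gene moves with this share, and the median log2 difference over the 12680 genes with a mean of at least 1 CPM was 0.006, -0.14 and -0.28 in the siMYCN, siHAND2 and combined groups. Differences are therefore also given after rescaling each sample by its median ratio to the mean profile, called the rescaled values, on which those medians were 0.014, 0.012 and 0.045. Of 8 noradrenergic neuroblastoma markers, 7 had at least 1 CPM in every group, with summed levels of 542 to 568 CPM in siCtrl and 502 to 780 CPM across the knockdown samples. Fibroblast markers summed to at most 18.6 CPM, Schwann cell markers to at most 3.21 CPM and leukocyte markers to under 1 CPM with CD3E at 0. The fibroblast sum was lower in siHAND2 (8.00 to 8.29 CPM) and the combined knockdown (3.56 to 5.44 CPM) than in siCtrl (15.6 to 18.6 CPM), and its part in the results was not tested. In bulk RNA a smaller number of cells of one kind and less RNA per cell cannot be told apart.

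Across the network, MYCN and MYCL fell when MYCN was targeted, MXD1 and MXD4 rose in all 3 knockdowns, MXI1 moved in opposite directions in the 2 single knockdowns, and MXD3 fell in siHAND2 and the combined knockdown. Differences are on the log2(CPM + 1) scale and were tested with limma over all 12680 genes, with Benjamini-Hochberg adjustment; a gene with an adjusted p under 0.05 is called. Of the 9 tested members, 5 were called in siMYCN, 2 higher and 3 lower, where 33.7% of all tested genes were called (17.4% higher and 16.3% lower). In siHAND2, 5 were called, 3 higher and 2 lower, against 42.7% of all genes (12.3% and 30.4%). In the combined knockdown 7 were called, 2 higher and 5 lower, against 67.4% of all genes (17.4% and 50.1%). The samples did not overlap those of siCtrl for 7, 8 and 6 of the 9 members, where 61%, 62.8% and 65% of all tested genes were free of overlap. MYCN, the target of its own siRNA, is among the members called lower and free of overlap in siMYCN and the combined knockdown. Its part in those counts, and in the medians below, follows from the design. With 9 members, these counts describe the network beside those shares and set it apart from other genes in no comparison. The median log2 difference of the 9 members was -0.24, -0.16 and -0.27 in the 3 knockdowns, and -0.23, -0.01 and 0.08 on the rescaled values. On the rescaled values 7, 5 and 7 members were called, against 47.9%, 50.8% and 70.7% of all genes.

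**Figure D1:**
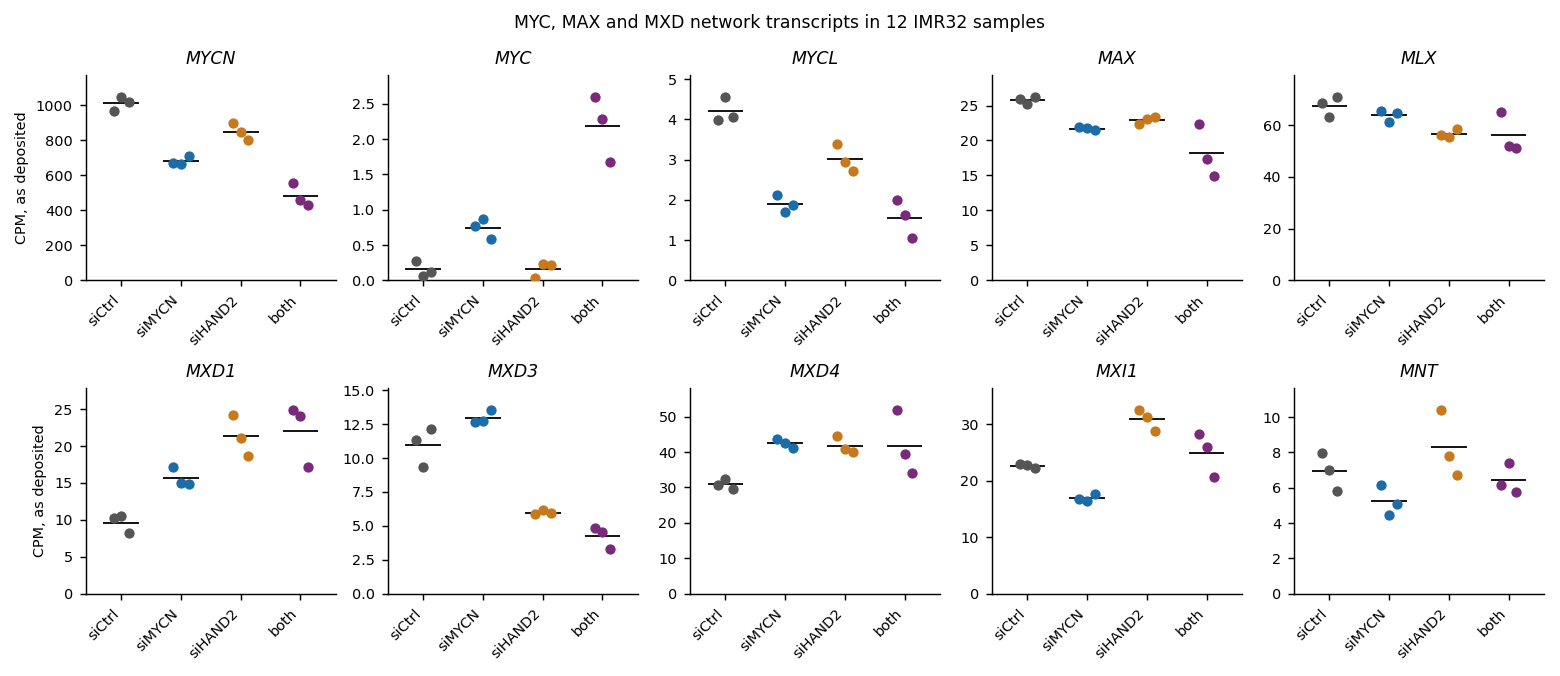
Deposited level of each of the 10 members in every sample, in CPM on a linear axis that differs between panels, with 1 point per sample, a line at the mean of 3 samples, and the 4 groups along the horizontal axis (both, the combined knockdown). MYCN is lowest in the combined knockdown (433 to 555 CPM), MYC is highest there (1.68 to 2.60 CPM), and MXD3 separates siCtrl and siMYCN from the other 2 groups.

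MYCN, the amplified driver of this line, lies on chromosome 2 at 16080560 to 16087130 on the plus strand. Its level was 964, 1049 and 1015 CPM in siCtrl, 671, 666 and 708 CPM in siMYCN, 899, 844 and 802 CPM in siHAND2, and 555, 458 and 433 CPM in the combined knockdown. The 4 groups did not overlap, with siCtrl highest and the combined knockdown lowest. The means were 67.5%, 84.1% and 47.7% of siCtrl, so the transcript was still the most abundant of the network by far in each group. MYCN fell by 0.57 ± 0.12 (SE) on the log2 scale in siMYCN (limma adjusted p = 5.3e-04) and by 1.07 ± 0.12 in the combined knockdown (limma adjusted p = 1.3e-08). In siHAND2 the difference of -0.25 ± 0.12 was not called (limma adjusted p = 0.086), though it was without combined replicate 1 (limma adjusted p = 0.014) or combined replicate 3 (0.020). It was also called in the fit of only the siHAND2 and siCtrl samples.

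How much lower MYCN was with both siRNAs than with the MYCN siRNA alone depended on the scale. The combined knockdown stood 0.51 below siMYCN (limma adjusted p = 7.0e-04) on the deposited values, and 0.16 ± 0.07 below it (limma adjusted p = 0.054) on the rescaled values. Scaled instead to the sum over listed genes it was 0.22 ± 0.07 below siMYCN (limma adjusted p = 0.011). Rescaled, MYCN stood at 68.0%, 93.9% and 61.0% of siCtrl in siMYCN, siHAND2 and the combined knockdown. The difference between the combined knockdown and siHAND2 was called on both scales, at -0.82 deposited and -0.62 rescaled (limma adjusted p = 5.9e-06 and 3.7e-06). HAND2, the other targeted gene, fell to 26.0% of siCtrl in siHAND2 and 30.7% in the combined knockdown. On the rescaled values it stood at 29.1% and 39.2%. The siHAND2 and combined samples overlapped for HAND2 on the deposited values (log2 difference 0.23, limma adjusted p = 0.13). They did not overlap on the rescaled values, where every combined sample was higher. HAND2 was higher in siMYCN than in siCtrl (326 CPM against 239 CPM, log2 difference 0.44, limma adjusted p = 0.0062).

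MYCNOS, the antisense gene that overlaps MYCN on the minus strand, did not follow it. It had 18.0, 17.4 and 19.8 CPM in siCtrl, 25.0, 26.2 and 27.3 CPM in siMYCN, 11.4, 13.0 and 13.3 CPM in siHAND2, and 17.7, 16.6 and 15.2 CPM in the combined knockdown. The siMYCN samples were the highest and the siHAND2 samples the lowest. MYCNOS rose by 0.49 ± 0.11 in siMYCN (limma adjusted p = 0.001) and fell by 0.52 ± 0.11 in siHAND2 (limma adjusted p = 4.1e-04). Its means were 142%, 68.4% and 89.7% of siCtrl in siMYCN, siHAND2 and the combined knockdown, and 143%, 76.5% and 115% rescaled. The direction in the combined knockdown thus turned with the scale. Expressed against MYCN in the same library, MYCNOS CPM was 1.82% of MYCN CPM in siCtrl, 1.49% in siHAND2, 3.83% in siMYCN and 3.44% with both siRNAs. Whether the counting used strand is not stated, so reads of MYCN and MYCNOS in the overlap cannot be told apart.

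MYC, the founding member of the family, was near the floor of detection in siCtrl and siHAND2 and was higher in siMYCN and the combined knockdown. It had 10, 3 and 7 estimated reads in the siCtrl libraries (0.275, 0.0685 and 0.122 CPM) and 29, 35 and 25 in siMYCN (0.765, 0.865 and 0.588 CPM). The siHAND2 libraries had 1, 8 and 9 reads (0.0316, 0.235 and 0.214 CPM), and the combined knockdown libraries had 167, 88 and 69 (2.60, 2.28 and 1.68 CPM). Every siMYCN sample lay above every siCtrl sample, every combined sample lay above every siMYCN sample, and siHAND2 overlapped siCtrl.

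Pooled over 3 libraries and scaled to depth, MYC was 5.06 times as frequent in siMYCN as in siCtrl (95% exact interval 3.09 to 8.68, from 89 and 20 reads) and 15.5 times as frequent in the combined knockdown (9.87 to 25.7, from 324 reads). These intervals cover counting error only. The ratio of siHAND2 to siCtrl was 1.15 (0.574 to 2.29, from 18 reads), and that of the combined knockdown to siMYCN was 3.06 (2.41 to 3.91). In a limma fit with no filter on low values, the log2(CPM + 1) difference of MYC was 0.59 in siMYCN (adjusted p = 0.005) and 1.46 in the combined knockdown (adjusted p = 1.9e-06), and it was 0.01 in siHAND2 (adjusted p = 1). In that fit 18.4%, 45.2% and 24.8% of 21110 genes were called in the same 3 comparisons. The combined knockdown also exceeded siMYCN, by 0.87 (limma adjusted p = 1.9e-04), where 36.5% of genes were called, and siHAND2, by 1.45 (limma adjusted p = 7.8e-05), where 21.9% were called.

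The MYC response was larger in the combined knockdown than the sum of the single responses on this scale. The interaction, which is the combined difference minus both single differences, was 0.86 ± 0.16 (limma adjusted p = 0.041), a call made for 0.739% of genes. It held its call in only 2 of the 12 fits that leave out 1 library, those without combined replicate 1 or combined replicate 3, and the other 10 had adjusted p of 0.074 to 0.13. With a pseudocount of 0.1 in place of 1 the interaction was 1.45 (limma adjusted p = 0.26), and on the rescaled values it was 1.04 (limma adjusted p = 0.002). Even in the combined knockdown MYC was 0.316% of the summed MYC family level per kilobase, against 0.0110% in siCtrl, and MYCN made up 99.4% to 99.7% over the 12 samples.

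MYCL, the third paralogue, followed MYCN. It had 3.99, 4.56 and 4.06 CPM in siCtrl, 2.11, 1.70 and 1.88 CPM in siMYCN, 3.39, 2.94 and 2.71 CPM in siHAND2, and 1.99, 1.63 and 1.05 CPM in the combined knockdown. All knockdown samples lay below the siCtrl samples, and the siMYCN and combined samples overlapped. MYCL fell by 0.85 ± 0.13 in siMYCN (limma adjusted p = 2.1e-05) and by 1.04 ± 0.13 in the combined knockdown (limma adjusted p = 1.6e-07), with rescaled differences of -0.82 and -0.80. In siHAND2 it fell by 0.38 (limma adjusted p = 0.024), a call that was lost without siCtrl replicate 2 (0.094), without siHAND2 replicate 2 (0.063) or 3 (0.092), with no filter (0.068), and on the rescaled values (-0.25, 0.056). Adding the HAND2 siRNA to the MYCN siRNA gave a difference of -0.20, with no call (limma adjusted p = 0.21), and 0.02 rescaled, whereas adding the MYCN siRNA to the HAND2 siRNA lowered MYCL by 0.66 (limma adjusted p = 3.0e-04).

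**Figure D2:**
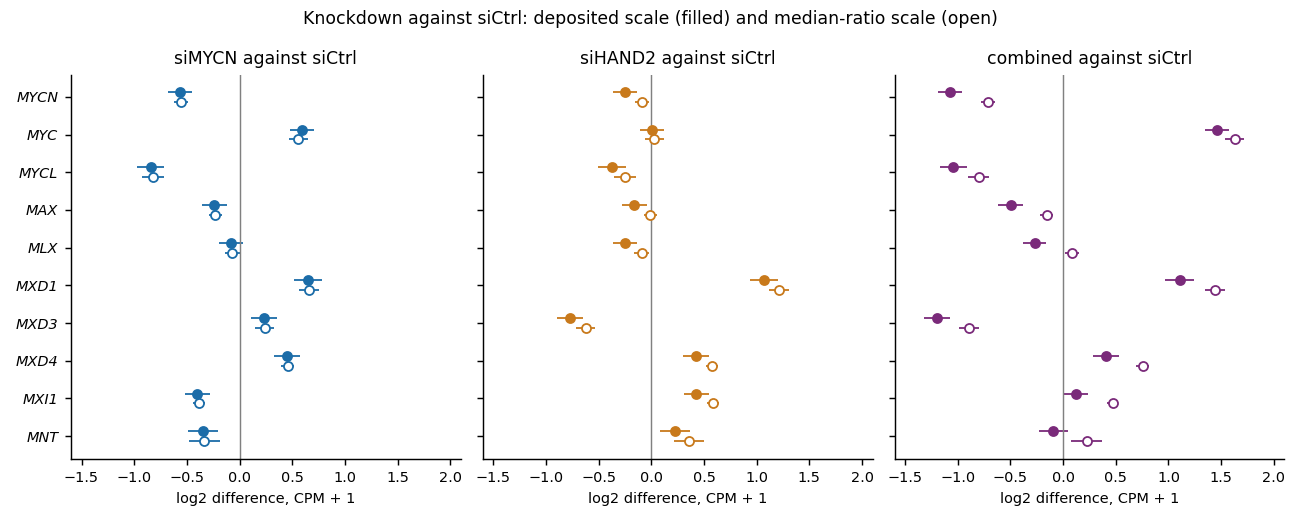
Log2(CPM + 1) difference of each member from siCtrl in the 3 knockdowns, on the deposited (filled) and the rescaled (open) values, with bars of ± 1 SE from the limma fit; MYC comes from the fit without a filter. MXD1 and MXD4 lie above 0 and MYCL and MYCN below 0 in all 3 knockdowns on both scales. MLX and MNT in the combined knockdown cross 0 between scales.

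MAX, the obligate partner of the MYC proteins, was called only in the combined knockdown among the comparisons with siCtrl, in the fit of all 12 samples on the deposited values. It had 25.9, 25.2 and 26.3 CPM in siCtrl, 21.9, 21.8 and 21.4 CPM in siMYCN, 22.3, 23.1 and 23.3 CPM in siHAND2, and 22.4, 17.4 and 14.9 CPM in the combined knockdown. All knockdown samples were below the siCtrl samples. MAX fell by 0.50 ± 0.12 in the combined knockdown (limma adjusted p = 6.6e-04), of which 0.15 ± 0.06 remained on the rescaled values (limma adjusted p = 0.036). In siMYCN the difference of -0.24 was not called on the deposited values (limma adjusted p = 0.12) and was called on the rescaled values (-0.23, limma adjusted p = 0.0068) and without combined replicate 1 (0.015) or 3 (0.027). In siHAND2 it was -0.16 (limma adjusted p = 0.27) and -0.01 rescaled. In fits of only the groups compared, MAX was called lower in both siMYCN and siHAND2. FNTB, on the opposite strand of the locus, averaged 16.4 and 16.6 CPM in siCtrl and siMYCN but 12.3 CPM in siHAND2 and 8.43 CPM in the combined knockdown, and its part in the MAX values was not tested.

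Per kilobase of the canonical transcript, MYCN exceeded MAX 30.1 ± 1.70 times in siCtrl (mean ± SD within libraries, n = 3). In siHAND2 it did so 28.5 ± 2.27 times, in siMYCN 24.2 ± 1.05 times and in the combined knockdown 20.6 ± 1.66 times. The size of the ratio depends on the lengths: with union exon lengths it averaged 88.9 in siCtrl, 84.2 in siHAND2, 71.4 in siMYCN and 60.7 in the combined knockdown, the same order. A ratio within a library does not depend on the share of reads in listed genes.

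MLX, the MAX-like partner, was the second most abundant member per kilobase. It had 68.4, 63.0 and 71.0 CPM in siCtrl, 65.5, 61.1 and 64.7 CPM in siMYCN, 56.1, 55.2 and 58.4 CPM in siHAND2, and 64.9, 51.9 and 51.2 CPM in the combined knockdown. The siHAND2 samples lay below all siCtrl samples and the other groups overlapped siCtrl. In the fit of all 12 samples on the deposited values, MLX was called only in the combined knockdown among the comparisons with siCtrl (-0.27, limma adjusted p = 0.036). That call was lost in 8 of 12 fits that leave out 1 library (adjusted p 0.051 to 0.14) and with only the groups compared. The rescaled difference had the opposite sign (0.08, limma adjusted p = 0.3). MLX in siHAND2 differed by -0.25 (limma adjusted p = 0.077), and by -0.09 on the rescaled values. The deposited difference was called without combined replicate 1 (0.0084) or 3 (0.016), and with only the groups compared. PSMC3IP, which overlaps MLX on the other strand, had 17.5, 14.7, 7.62 and 5.24 CPM in the 4 groups in the same order, and its part in the MLX values was not tested.

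MXD1, the archetypal MYC antagonist, rose in every knockdown and most where HAND2 was targeted. It had 10.2, 10.5 and 8.21 CPM in siCtrl and 17.2, 15.0 and 14.8 CPM in siMYCN. The level was 24.3, 21.1 and 18.6 CPM in siHAND2 and 24.9, 24.0 and 17.2 CPM in the combined knockdown. No knockdown sample overlapped siCtrl, the siHAND2 samples lay above the siMYCN samples, and the siHAND2 and combined samples overlapped. MXD1 rose by 0.65 ± 0.13 in siMYCN (limma adjusted p = 4.8e-04), 1.07 ± 0.13 in siHAND2 (limma adjusted p = 5.4e-07) and 1.11 ± 0.13 in the combined knockdown (limma adjusted p = 7.5e-08). On the rescaled values the differences were 0.66, 1.21 and 1.44, all called. The combined knockdown exceeded siMYCN by 0.45 (limma adjusted p = 0.0057) and differed from siHAND2 by 0.04 (limma adjusted p = 0.85). The interaction of -0.62 was not called (limma adjusted p = 0.065), although it was without siHAND2 replicate 3 (0.030) or combined replicate 1 (0.014).

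MXD4, the antagonist with the highest CPM, rose to a like level in the 3 knockdowns. It had 30.8, 32.4 and 29.5 CPM in siCtrl, 43.6, 42.7 and 41.1 CPM in siMYCN, 44.4, 40.7 and 40.0 CPM in siHAND2, and 51.9, 39.4 and 34.2 CPM in the combined knockdown. All knockdown samples lay above the siCtrl samples, and the 3 knockdowns overlapped each other. The increases were 0.45 (limma adjusted p = 0.007), 0.42 (0.0081) and 0.40 (0.0059), each ± 0.12. Differences between the combined knockdown and the single ones were -0.04 and -0.02 on the deposited values, not called, and 0.30 and 0.18 on the rescaled values (limma adjusted p = 8.3e-04 and 0.025). The interaction was -0.46 (limma adjusted p = 0.14), and it was called without combined replicate 1 (0.0026).

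MXI1 went down with MYCN and up with loss of HAND2. It had 22.9, 22.9 and 22.3 CPM in siCtrl, 16.8, 16.4 and 17.7 CPM in siMYCN, 32.6, 31.4 and 28.8 CPM in siHAND2, and 28.4, 26.0 and 20.6 CPM in the combined knockdown. The siMYCN samples lay below and the siHAND2 samples above all siCtrl samples, and the combined samples straddled them. MXI1 fell by 0.40 ± 0.11 in siMYCN (limma adjusted p = 0.0086) and rose by 0.43 ± 0.11 in siHAND2 (limma adjusted p = 0.0039). In the combined knockdown the difference from siCtrl was 0.12 (limma adjusted p = 0.35). That value was 0.25 without combined replicate 3 (limma adjusted p = 0.017) and 0.47 on the rescaled values (limma adjusted p = 3.1e-06). The combined knockdown was 0.52 above siMYCN (limma adjusted p = 4.3e-04) and 0.31 below siHAND2 (limma adjusted p = 0.036), the latter a weak call. It was lost on the rescaled values (-0.11, 0.11), with no filter (0.052), with only the groups compared (0.16) and in 6 of 12 fits that leave out 1 library. Those were without siMYCN replicate 2 (0.051) or 3 (0.051), siHAND2 replicate 1 (0.13) or 2 (0.11), or combined replicate 2 (0.051) or 3 (-0.18, 0.12). The interaction of 0.09 was not called (limma adjusted p = 0.74).

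MXD3, the MXD protein known for expression in proliferating S-phase cells, stood apart from the other antagonists. It had 11.3, 9.36 and 12.2 CPM in siCtrl, 12.6, 12.7 and 13.5 CPM in siMYCN, 5.85, 6.15 and 5.93 CPM in siHAND2, and 4.85, 4.53 and 3.30 CPM in the combined knockdown. The siHAND2 and combined samples lay below all samples of the other 2 groups, and every combined sample lay below every siHAND2 sample. MXD3 fell by 0.77 ± 0.12 in siHAND2 (limma adjusted p = 1.5e-05) and by 1.20 ± 0.12 in the combined knockdown (limma adjusted p = 3.5e-09). In siMYCN the difference was 0.23 (limma adjusted p = 0.15), and on the rescaled values 0.24 (limma adjusted p = 0.044). With only the groups compared, MXD3 was called higher in siMYCN. Adding the HAND2 siRNA to the MYCN siRNA lowered MXD3 by 1.43 (limma adjusted p = 3.3e-10), and adding the MYCN siRNA to the HAND2 siRNA lowered it by 0.43 (limma adjusted p = 0.0066), or 0.27 rescaled (0.025).

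On the deposited values the effect of the MYCN siRNA on MXD3 thus differed with the state of HAND2, though the call depended on the samples and settings. The interaction was -0.66 ± 0.17 (limma adjusted p = 0.027) and MXD3 was the only tested member of 9 with a called interaction, where 4.01% of all tested genes were called. That share was unstable, with 263 to 4443 genes called when 1 library was left out, against 508. On the deposited values the call was lost without siCtrl replicate 2 (0.098), siHAND2 replicate 2 (0.076) or any 1 of the siMYCN replicates 1 (0.055), 2 (0.063) and 3 (0.077). It was also lost in the fit with no filter on low values (0.13). The rescaled interaction was -0.51 (limma adjusted p = 0.033). With 1 library left out it kept its call only without siCtrl replicate 3, siHAND2 replicate 1, combined replicate 1 or combined replicate 2. The rescaled call was lost with no filter as well. PRELID1, which overlaps MXD3 on the other strand, averaged 90.0 ± 2.87 CPM (SD, n = 3) in siCtrl. It stood at 64.2 ± 2.83 CPM in siMYCN, 58.4 ± 4.51 CPM in siHAND2 and 35.5 ± 8.54 CPM with both siRNAs. PRELID1 was lower than siCtrl in siMYCN while MXD3 was not, and its part in the MXD3 values was not tested.

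MNT, the widely expressed antagonist, had no called difference from siCtrl in the fit of all 12 samples with no block on the deposited values. It had 7.98, 7.03 and 5.80 CPM in siCtrl, 6.15, 4.47 and 5.11 CPM in siMYCN, 10.4, 7.80 and 6.74 CPM in siHAND2, and 6.16, 7.38 and 5.75 CPM in the combined knockdown, and each knockdown overlapped siCtrl. The log2 differences were -0.35 (limma adjusted p = 0.06), 0.22 (0.21) and -0.09 (0.57). Blocking on the replicate number, which was treated as pairing the siMYCN and siCtrl samples, gave a call in siMYCN (-0.35, limma adjusted p = 0.018). The block was fitted over all 12 samples, and the labels do not say what the number pairs. MNT in siMYCN was also called without siCtrl replicate 3 (0.032), siMYCN replicate 1 (0.033), siHAND2 replicate 1 (0.035), siHAND2 replicate 3 (0.045) or combined replicate 3 (0.039). With only the groups compared it was called lower there too. On the rescaled values MNT was higher in siHAND2 (0.36, limma adjusted p = 0.049) and in the combined knockdown against siMYCN (0.56, limma adjusted p = 0.0044).

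Between the knockdowns, 4 of the 9 members were called for the combined knockdown against siMYCN, MXD1 and MXI1 higher and MXD3 and MYCN lower, where 58.9% of all genes were called (8.92% higher and 50% lower). Against siHAND2, 5 were called and all were lower (MAX, MXD3, MXI1, MYCL and MYCN), where 40.3% of all genes were called (8.75% higher and 31.5% lower). The MAX call in this comparison (-0.33, limma adjusted p = 0.027) was not kept on the rescaled values (-0.14, 0.065), with no filter (0.054) or with only the groups compared (0.11). It was also lost without siHAND2 replicate 2 (0.078) or 3 (0.065), or combined replicate 2 (0.082) or 3 (-0.21, 0.094). MYCN was targeted in the combined knockdown and not in siHAND2, so its call against siHAND2 follows from the design. These comparisons between knockdowns share samples with those against siCtrl and are not independent of them.

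Levels between genes can be compared only per length, and CPM per kilobase of the canonical transcript gave this order in siCtrl. MYCN was highest at 386, then MLX at 28.6, MAX at 12.8, MXD3 at 10.3, MXD4 at 7.98, MXI1 at 6.54, MXD1 at 1.74, MNT at 1.41, MYCL at 1.19 and MYC at 0.0417. Of these neighbours, MXD1 and MNT overlapped in their samples, as did MNT and MYCL. In siMYCN the order below MLX (27.0) was MXD3 at 12.2, MXD4 at 11.0, MAX at 10.8 and MXI1 at 4.89, with MXD4 and MAX overlapping. MXD1, MNT, MYCL and MYC followed at 2.82, 1.06, 0.539 and 0.199.

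In siHAND2 MYCN was at 325 CPM per kilobase and MLX at 24.0, and MAX (11.4) overlapped MXD4 (10.8), followed by MXI1 at 8.91, MXD3 at 5.60, MXD1 at 3.84, MNT at 1.69, MYCL at 0.856 and MYC at 0.0431. In the combined knockdown MYCN was at 184, MLX at 23.7, MXD4 at 10.8, MAX at 9.06 and MXI1 at 7.21, where MXD4 overlapped MAX and MAX overlapped MXI1. MXD1 (3.97) and MXD3 (3.96) overlapped there, MNT stood at 1.31, and MYC (0.588) overlapped MYCL (0.442). The place of MXD3 depends on the length used: its canonical transcript has 1067 bases and the union of its annotated exons 4743. Per kilobase of the union it stood at 2.31 in siCtrl, under MXD4 (4.50), MAX (4.12) and MXI1 (3.84).

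**Figure D3:**
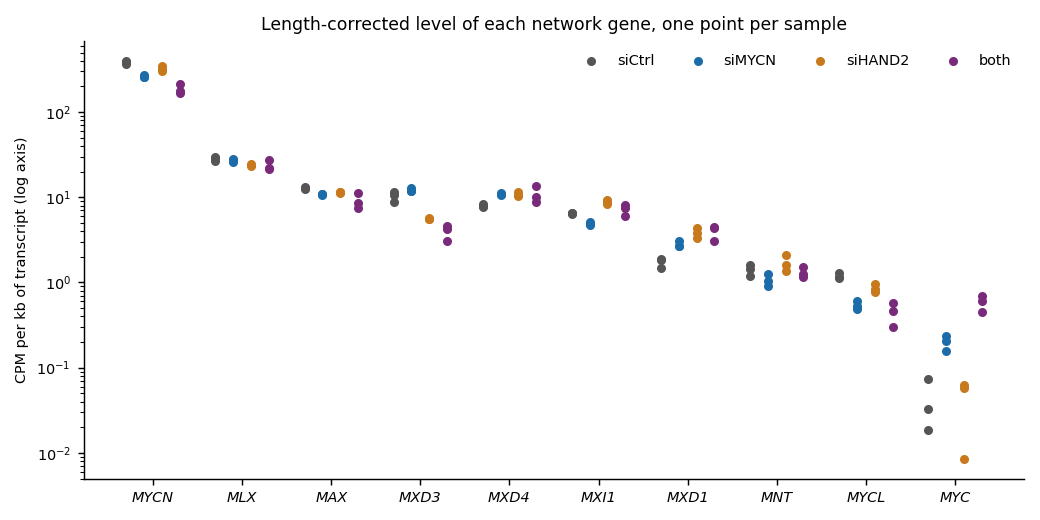
Level of each member in CPM per kilobase of its canonical transcript, on a log axis, with 1 point per sample, coloured by group (both, the combined knockdown). MYCN (184 to 386 as group means) lies far above MLX and the rest, and MYC moves from 0.0417 in siCtrl to 0.588 in the combined knockdown.

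The summed level of the 5 antagonists (MXD1, MXD3, MXD4, MXI1 and MNT) per kilobase was small beside MYCN and grew against it in each knockdown. In siCtrl it was 7.25% ± 0.511 of the MYCN level (mean ± SD within libraries, n = 3), and it was 9.49% ± 0.0651 in siHAND2, 12.2% ± 0.363 in siMYCN and 14.7% ± 1.26 with both siRNAs. With union exon lengths the shares were 3.54% in siCtrl, 5.47% in siHAND2, 6.01% in siMYCN and 8.79% with both. The order of siMYCN and siHAND2 was the same with both lengths. MYCN was itself targeted in siMYCN and the combined knockdown, so its fall alone raises this share there. In the combined knockdown MXD1 and MXD4 rose and MXD3 fell, and the share does not show that the sum rose.

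The makeup of the antagonists shifted too. MXD3 was 36.7% of their summed level per kilobase in siCtrl and 38.1% in siMYCN, but 18.2% in siHAND2 and 14.5% in the combined knockdown. MXD4 went from 28.6% in siCtrl to 34.4%, 35.0% and 39.5% in the 3 knockdowns, and MXD1 from 6.22% to 8.85%, 12.4% and 14.6%. MXI1 was 23.4%, 15.3%, 28.9% and 26.5% in the 4 groups, and MNT stayed between 3.33% and 5.44%. With union exon lengths the MXD3 part was smaller, at 17.8% in siCtrl and 18.4% in siMYCN, and lower still at 7.50% in siHAND2 and 5.77% with both siRNAs. These ratios are descriptions with no test.

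**Figure D4:**
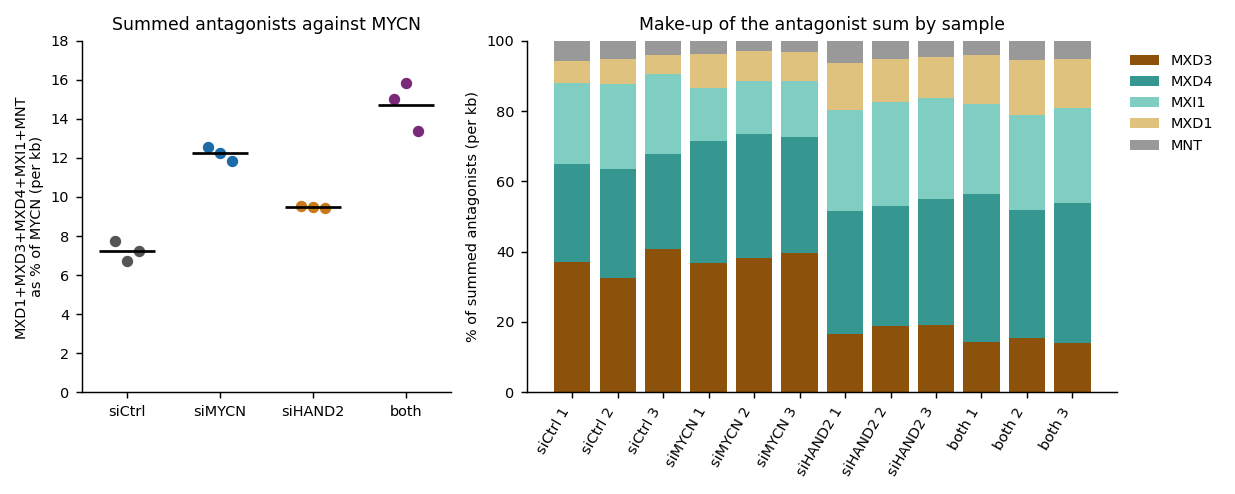
Left, summed level of MXD1, MXD3, MXD4, MXI1 and MNT per kilobase as a percentage of MYCN in the same library, with 1 point per sample and a line at each group mean. Right, stacked bars of the makeup of that sum in percent, 1 bar per sample, both with canonical transcript lengths. The share against MYCN goes from 7.25% in siCtrl to 14.7% in the combined knockdown, where MYCN is itself targeted. The MXD3 part shrinks from 36.7% to 14.5% (17.8% to 5.77% with union exon lengths).

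The genes whose rescaled log2 levels followed a member most closely over the 12 samples were ranked by Pearson correlation among 10191 genes with a mean of at least 5 CPM. The 12 samples fall in 4 groups that all genes share, so r is a description and carries no p. For MYCN they were MBLAC2 (r = 0.988) and MYBBP1A (0.985), for MAX RPL7L1 (0.968) and DUS1L (0.946), and for MLX PTS (0.913) and PIGF (0.908). For MXD1 they were MAP1A (0.991) and SLC35E2B (0.990), for MXD3 CRABP2 (0.983) and ENDOG (0.982), and for MXD4 CAMSAP1 (0.984) and CLSTN3 (0.983). JMY (0.988) and SIK1 (0.981) were nearest to MXI1, and IBA57 (0.993) and ATP11A (0.976) to MNT. On the deposited values r was lower for SLC35E2B (0.845) and CLSTN3 (0.889), and 0.923 to 0.989 for the other genes named. CRABP2, for instance, averaged 34.5 CPM in siCtrl and 51.6 CPM in siMYCN but 15.7 CPM in siHAND2 and 9.64 CPM with both siRNAs.

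Most of the widely used MYC target genes fell in the single knockdowns, and all that were tested fell in the combined one. Of 30 listed, 29 were tested (TERT was under 1 CPM), and 26 were called lower in siMYCN, 25 in siHAND2 and all 29 in the combined knockdown, with none higher. Of all tested genes, 16.3%, 30.4% and 50.1% were called lower in these 3 comparisons. APEX1, EIF4E and PTMA were not called in siMYCN, and APEX1, BOP1, MTHFD2 and SRM were not called in siHAND2. Their median log2 differences were -0.77, -0.49 and -1.49, and -0.76, -0.33 and -1.14 on the rescaled values, beside medians near 0 for all genes on that scale. The largest were LDHA (-2.35 in the combined knockdown), which makes lactate, ENO1 (-1.91) of glycolysis, PA2G4 (-1.82), a growth regulator, and MCM7 (-1.79) of the replicative helicase. LDHA fell by 0.95 in siMYCN (limma adjusted p = 2.1e-06) and by 0.98 in siHAND2 (limma adjusted p = 6.7e-07), and MCM7 by 0.42 and 0.86 (0.0097 and 3.8e-06). No target had a called interaction on the deposited values (limma), and 1 had one on the rescaled values.

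Of 12 cofactors that MYC proteins bind, 4, 5 and 8 were called lower and none higher in siMYCN, siHAND2 and the combined knockdown, beside the 16.3%, 30.4% and 50.1% of all tested genes. Their medians were -0.17, -0.19 and -0.61, or -0.25 in the combined knockdown when rescaled, with 6 called lower and 1 higher. The acetyltransferase gene KAT2A (-1.31) and the ATPase genes RUVBL1 (-1.30) and RUVBL2 (-1.14) fell most there, with the scaffold gene WDR5 (-1.21). KAT2A was also lower in siMYCN (-0.71, limma adjusted p = 8.9e-05) but not called in siHAND2 (-0.27, limma adjusted p = 0.088).

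Of the 6 corepressor genes through which the MXD proteins and MNT act, 3 were called lower in the combined knockdown, HDAC1 (-1.17), SIN3A (-0.85) and HDAC2 (-0.43), and SIN3B was not (0.23). That is the share of all tested genes called lower there, 50.1%. Rescaled, 3 were called higher and 2 lower. HDAC1 was also called in siMYCN (-0.33, limma adjusted p = 0.021) and siHAND2 (-0.57, limma adjusted p = 1.4e-04). Another of the 6 was called higher in siHAND2, beside 12.3% of all tested genes.

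Among 9 regulators of MYC protein turnover, 6 were called lower in the combined knockdown (4 lower and 1 higher rescaled), beside 50.1% of all tested genes. They were led by AURKA (-1.49), the kinase known to stabilise MYCN protein, and by the deubiquitinase gene USP28 (-1.19), the ligase gene SKP2 (-1.12) and USP7 (-0.71). AURKA was called in siHAND2 (-0.81, limma adjusted p = 5.6e-06) and not in siMYCN (-0.14, limma adjusted p = 0.4).

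The remaining partners gave a mixed picture. MLXIP, which pairs with MLX, was called in the combined knockdown only on the deposited values (-0.65, limma adjusted p = 9.4e-04; -0.30 and 0.13 rescaled), and MGA, a MAX partner, was not called there (-0.24, limma adjusted p = 0.066). TXNIP, the best known target of the MLX and MLXIP dimer, rose from 50.9 ± 1.95 CPM in siCtrl to 97.9 ± 3.30 CPM in siHAND2, 121 ± 3.89 CPM in siMYCN and 147 ± 30.4 CPM with both siRNAs. Its log2 differences were 0.93 in siHAND2, 1.23 in siMYCN and 1.50 with both (limma adjusted p = 1.2e-06, 3.5e-08 and 7.9e-11), and its interaction was -0.66 (limma adjusted p = 0.028). ARRDC4, the other listed target, was called in siHAND2 (0.48, limma adjusted p = 0.0015) and not in siMYCN or the combined knockdown (0.19 in both). On the rescaled values ARRDC4 was called in all 3 (0.19, 0.63 and 0.51 in siMYCN, siHAND2 and the combined knockdown, limma adjusted p = 0.049, 1.0e-05 and 3.0e-05).

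**Figure D5:**
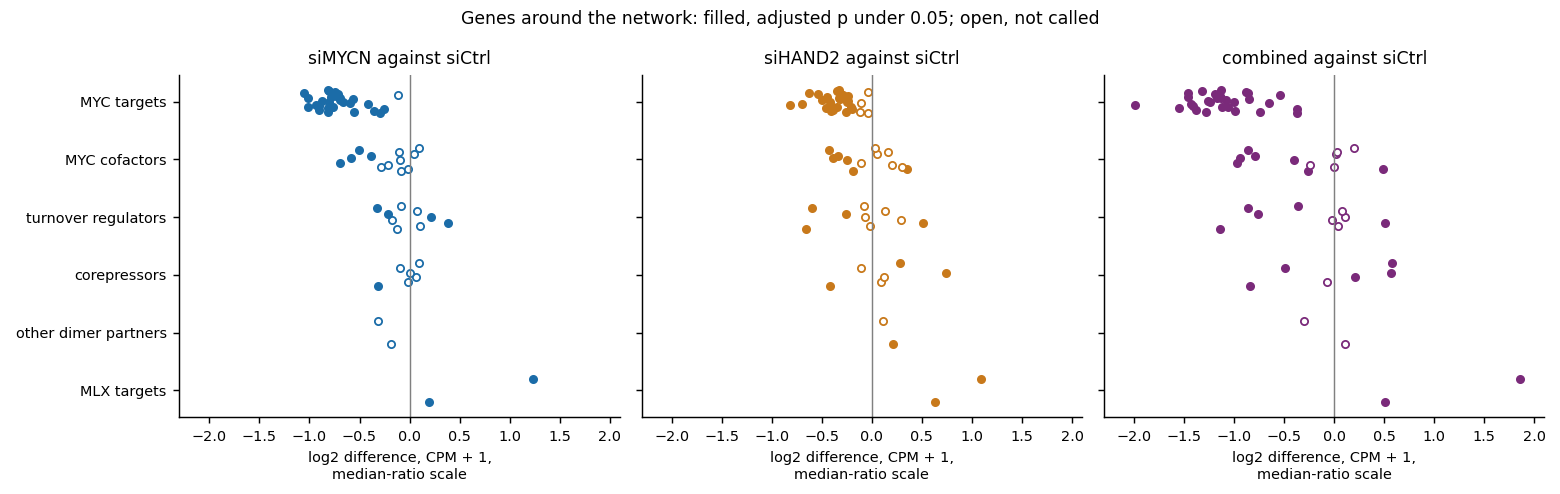
Rescaled log2 difference from siCtrl of each tested gene in the fixed lists of partners, cofactors, corepressors, turnover regulators, MYC targets and MLX targets, in the 3 knockdowns, with 1 point per gene, filled where called. The 29 MYC targets lie below 0, with medians of -0.76, -0.33 and -1.14, and TXNIP stands above 0 in all 3.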

How the data were processed

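RNA was sequenced from 12 IMR32 samples, and the titles gave each sample's group and replicate number. The authors deposited 1 table of CPM values, with a constant of 0.0001 added to every value, which was subtracted here. Per the submitters' processing notes, STAR 2.5.1 and Partek were used with hg19, and the table gives positions in that build. The counting rule, its use of strand and the annotation are not given in the sources used here. Deposited CPM values were divided by the smallest step between low values to estimate depth (31.6 to 64.1 M reads), and 88.7 to 90.2% of values under 20 reads were whole within 0.05 reads, too few to treat them as counts.

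Values were taken as log2(CPM + 1) and fitted over the 12680 genes with a mean of at least 1 CPM by limma 3.58.1 (lmFit, then eBayes with trend) in R 4.3.3, all 12 samples together, with 8 residual degrees of freedom. Tests were two-sided with Benjamini-Hochberg adjustment and were checked on simulated data. The simulation had independent genes and the same spread in all groups, so it did not cover the wider spread of the combined samples. A pseudocount of 1 understates the change of low genes, so MYC, under the filter, was read from a fit of 21110 genes with no filter. The estimated reads of MYC were compared with an exact conditional binomial interval.

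All members are named, and for each list up to 4 genes with the largest combined log2 difference, the 2 genes most like each member, overlapping genes, TXNIP and ARRDC4, and HAND2. AURKA, KAT2A, HDAC1, LDHA and MCM7 are followed across knockdowns, a choice made after their values were seen. The members and lists were chosen with earlier results of these data known. No pair of replicates was a single library: the mean chi-square per gene between replicates was 3.36 to 37.8.

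Same-numbered siCtrl and siMYCN samples deviated together (r = 0.44, 0.15 and 0.31 across genes, which are not independent replicates), so the replicate number was treated as pairing them. Alternatives were the replicate block, another pseudocount or filter, no trend, only the groups compared, stricter thresholds, each sample left out in turn, and rescaling by the median ratio or by the sum over listed genes.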

Additional observations from a re-analysis of the deposited data

Results flagged for a closer look

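An interaction of the MYCN and HAND2 knockdowns, the departure from the sum of their single effects, was called for 2 members in different fits, and both calls depend on the samples and settings. MYC was higher with both siRNAs than the single knockdowns add up to, with an interaction of 0.86 on the log2(CPM + 1) scale (limma with no filter on low values, adjusted p = 0.041). The call was lost in 10 of 12 fits that leave out 1 library (adjusted p 0.074 to 0.13) and with a pseudocount of 0.1 (0.26). All 3 combined samples lay above the highest sample of every other group, at 69 to 167 estimated reads a library.

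MXD3 was lower with both siRNAs than the single knockdowns add up to, with an interaction of -0.66 (limma adjusted p = 0.027). The call was lost in 5 of 12 fits that leave out 1 library, without siCtrl replicate 2, siHAND2 replicate 2 or any 1 siMYCN replicate (adjusted p 0.055 to 0.098). It was also lost in the fit with no filter (0.13), the fit that called MYC. On the rescaled values, too, the call depended on the library left out. The MYCN siRNA went with a difference of 0.23 in MXD3 when given alone and of -0.43 when added to the HAND2 siRNA. PRELID1, on the other strand of MXD3, was lowest in the combined knockdown as well, at 35.5 CPM, and its part was not tested.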

How the results depend on the processing

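Values are given in the order siMYCN, siHAND2 and combined against siCtrl, combined against siMYCN, combined against siHAND2, and interaction. With an absolute log2 difference of at least 1 as well, 290, 507, 2110, 966, 213 and 69 genes and 0, 1, 4, 1, 0 and 0 members were called. At an adjusted p under 0.01, 2761 genes were called in siMYCN and 169 for the interaction, and 3 members against siHAND2 and 0 for the interaction. With only the groups compared, 6963 genes and 8 members were called in siMYCN, 8 members in siHAND2 and 3 members against siHAND2. For the interaction, 156 genes were called with no filter, 779 after median-ratio rescaling and 795 after rescaling to the listed genes, against 508 in the main setting.

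With the replicate number as a block, 1282 genes and 3 members were called for the interaction (MXD3, MXD1 with adjusted p = 0.0066 and MXD4 with 0.049, limma). Block and median ratio together gave 6480 genes in siMYCN, 7 members against siMYCN, and 1262 genes and 3 members for the interaction. Same-numbered siMYCN and siHAND2 samples also deviated together (r = 0.33, 0.14 and 0.32), but these groups are not compared here. In each comparison other than siMYCN against siCtrl at least 1 of the 3 same-numbered correlations was under 0.1, and there the block also called MAX against siMYCN (limma adjusted p = 0.042) and MNT against siHAND2 (0.029).

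Leaving out each sample in turn gave 3202 to 5756, 4303 to 6941, 7833 to 9340, 6414 to 8960, 3905 to 6962 and 263 to 4443 genes, and 5 to 7, 4 to 7, 6 to 7, 4 to 8, 3 to 5 and 0 to 4 members. Combined replicate 1 made the upper ends for the interaction (4443 genes and 4 members without it) and against siMYCN (8 members), and siHAND2 replicate 3 left 2 members with a called interaction. Against siHAND2, 3 members were called without siHAND2 replicate 2 or combined replicate 2 or 3. Without siCtrl replicate 1 or 3, siHAND2 replicate 1 or 2, or any 1 siMYCN replicate, 263 to 328 genes had a called interaction, and no member did without siCtrl replicate 2, siHAND2 replicate 2 or any 1 siMYCN replicate. On the median-ratio values, a setting added after seeing the data, it gave 5202 to 6501, 5484 to 6885, 8388 to 9028, 6222 to 7350, 5327 to 6314 and 415 to 1436 genes, and 6 to 8, 4 to 6, 6 to 7, 5 to 6, 2 to 6 and 0 to 3 members.

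Directions turned with the scale for values near 0. After median-ratio rescaling, with or without the block, differences between combined and siMYCN became 0.016 for MYCL, 0.075 for MAX, 0.30 for MXD4 and 0.15 for MLX (0.016, 0.24 and 0.091 for the last 3 when rescaled to listed genes). Against siHAND2, MXD4 became 0.18 and MLX 0.17 (0.20 and 0.19). Against siCtrl, MNT became 0.22 and MLX 0.083 (0.21 and 0.074), and the MAX interaction became 0.085 (0.052). The MYC difference in siHAND2 was -0.0054 with a pseudocount of 0.1, added after seeing the data, and -0.048 to 0.088 with 1 sample left out. Leaving out 1 sample also turned MXD1 (-0.056 to 0.20), MXD4 (-0.18 to 0.12) and MLX (-0.13 to 0.037) against siHAND2, MXD4 against siMYCN (-0.21 to 0.089), MNT against siCtrl (-0.20 to 0.0017), and the interactions of MAX (-0.24 to 0.033), MNT (-0.091 to 0.19) and MLX (-0.052 to 0.12). The cause was not tested.

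Depth limits MYC most: with 1 to 10 reads a library in siCtrl and siHAND2, the counting interval of their ratio runs from 0.574 to 2.29, so smaller differences were not detectable. The share of reads in listed genes moves with the knockdowns. With 1 siRNA per target, effects of an siRNA and of its target cannot be told apart.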
